A study of Mus musculus with 18 samples.

Results

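Adrenal glands of wild-type female mice were set against those of wild-type intact males, over autosomal genes. The groups compared hold 6 of the 18 bead arrays of the series, chosen by their labels: 3 of wild-type females and 3 of wild-type intact males. Of the 10375 genes tested, 10032 lie on an autosome. The samples of all groups were labelled C57BL/6N, 2 months old and adrenal gland, and the 6 arrays carry no deletion or treatment in their labels. Used beside them were the arrays of Ephb6 knockout females, of wild-type castrated males and of Ephb6 knockout intact males, 3 each. Normalization, the detection filter and the linear model used all 18 arrays, and the spread of each gene was estimated over all of them. These include 3 arrays of Ephb6 knockout castrated males, whose values are not described. Array 1 of that group was dim, with a mean signal of 244 intensity units and 27.8% of probes detected. Ephb6 is a receptor for ephrins, ligands held on the surface of neighbouring cells. The labels used here give neither the stage of the oestrous cycle, nor the age at castration, nor whether the numbered samples of a group came from separate animals or from pools. A p-value here therefore reflects only how much these arrays vary, and that variation may be technical.

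The adrenal cortex makes steroid hormones from cholesterol. Its outer zona glomerulosa makes aldosterone under the control of angiotensin II and potassium, and its zona fasciculata makes corticosterone under the control of ACTH. The medulla, at the centre, makes adrenaline and noradrenaline. In young female mice an extra inner layer, the X-zone, lies between cortex and medulla. In males it regresses at puberty under androgens, and castration lets a similar layer return. Whole glands were measured, so fewer cells of a type and less RNA per cell cannot be told apart.

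The mean bead signal was 477 to 578 intensity units on the female arrays and 469 to 640 on the male arrays, and the share of probes detected was 35.2% to 36.3% in females and 35.5% to 37.1% in males. Values below are log2 intensities after background correction and quantile normalization, and differences are female minus male on that scale. Xist, the RNA that coats an inactive X chromosome, lay at 9.70 to 10.11 on the female arrays and at 4.34 to 4.50 on the male arrays, and Eif2s3y of the Y chromosome at 4.41 to 4.57 in females and 7.36 to 8.08 in males, as labelled. Markers of cortex and medulla were bright in both sexes: Star, which carries cholesterol into mitochondria, averaged 12.44 ± 0.37 in females and 12.68 ± 0.15 in males, and Th, which makes L-DOPA, 12.97 ± 0.34 in females and 13.31 ± 0.49 in males (SD, n = 3 each). Of the ovary list, Zp1, Zp2, Zp3, Amh, Foxl2, Bmp15, Nobox and Fshr were below the detection filter, while Gdf9, Ovgp1 and Oosp1 passed it; Oosp1 was higher in females and is described with the cell markers. Among the male arrays, male 1 lay nearest to the females: it was the lowest of the males for 260 of the 480 genes that were lower in females, and the highest for 288 of the 534 that were higher. Its part in the results was not tested beyond leaving it out.

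Of the 10032 autosomal genes, 1014 (10.1%) passed an adjusted p under 0.05 in limma with Benjamini-Hochberg adjustment, and 2234 had an unadjusted p under 0.05. In females 534 genes (5.32%) were higher and 480 (4.78%) were lower. The largest increases were in Akr1c18, Cyp2f2 and Pik3c2g, and both members of the X-zone list, Akr1c18 and Pik3c2g, passed. The largest decreases were in Susd3, Aldh1a7, Acan, Rarres1 and Drd4, none of which was detected on a female array. Large increases outnumbered large decreases: 20 genes were higher by more than 3 on the log2 scale and 6 were lower by more than 3. Beyond 1 on the log2 scale there were 211 higher and 179 lower genes. For 990 of the 1014 genes the 3 female and the 3 male arrays did not overlap, where 13.6% and 15.4% of all autosomal genes were separated upward and downward. The 20 largest increases and 20 largest decreases described below were taken from these 990, so lack of overlap in them was a condition of the choice. For 44 of the higher genes no male array detected the RNA, and for 45 of the lower ones no female array did. The median difference over all autosomal genes was -0.02, with a median standard error of 0.205. The count of 1014 was 665 without female array 2, 618 without female array 3 and 640 without male array 3, and 300 when arrays were scaled to equal medians in place of quantile normalization.

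**Figure D1:**
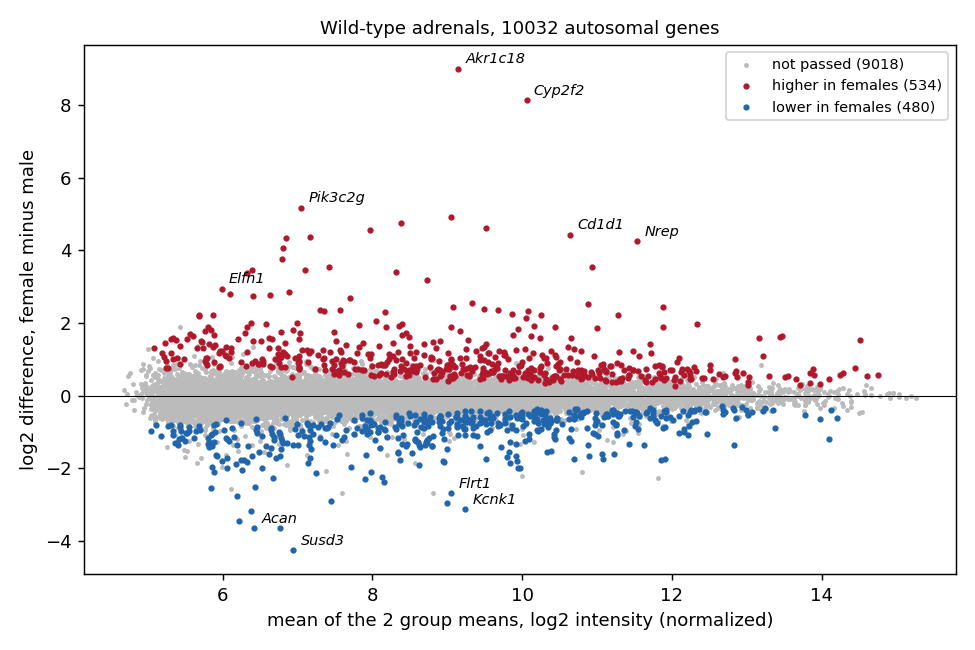
Each point is an autosomal gene, with the mean of the female and male group means (log2 intensity) on the horizontal axis and the female minus male log2 difference on the vertical axis. The 534 higher genes (red) reach 9.004 and the 480 lower genes (blue) reach -4.26, and genes that did not pass (grey) centre on -0.02.

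Akr1c18, the 20-alpha-hydroxysteroid dehydrogenase that inactivates progesterone and marks the X-zone, lay at 13.88, 14.19 and 12.87 in females and at 4.97, 4.56 and 4.40 in males, where no array detected it. That is at least 282-fold higher in females (adjusted p = 4.45e-13). Cyp2f2, a cytochrome P450 that oxidizes small aromatic compounds, was detected on all 6 arrays, at 14.12, 14.55 and 13.71 in females and 5.76, 6.09 and 6.12 in males. It was 282-fold higher in females (log2 difference 8.14, SE 0.19, adjusted p = 8.35e-16). Pik3c2g, a class II phosphoinositide 3-kinase and a further X-zone gene, was at 10.19, 10.18 and 8.56 in females and 4.51, 4.41 and 4.47 in males, at least 17.5-fold higher (adjusted p = 4.21e-07). Female array 3 was the lowest of its group for all 3 genes, and still lay above every male array.

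Promoter sequences are shown for 4 genes: the largest increase (Akr1c18), the next (Cyp2f2), the largest decrease (Susd3) and the gene furthest above castrated males in females (Elfn1). Each is the RefSeq window of 300 bases around the annotated start on GRCm38.p6, written 5' to 3' on the gene's strand. Capitals mark AAGGTCA, the letters bound by NR5A1, the steroidogenic master regulator of the adrenal, and AGAACA, the half-site shared by the androgen and glucocorticoid receptors. Both strands were searched, so AAGGTCA also appears as TGACCTT. The matches did not overlap each other.
Akr1c18 (chr13:4150597-4150896, minus strand): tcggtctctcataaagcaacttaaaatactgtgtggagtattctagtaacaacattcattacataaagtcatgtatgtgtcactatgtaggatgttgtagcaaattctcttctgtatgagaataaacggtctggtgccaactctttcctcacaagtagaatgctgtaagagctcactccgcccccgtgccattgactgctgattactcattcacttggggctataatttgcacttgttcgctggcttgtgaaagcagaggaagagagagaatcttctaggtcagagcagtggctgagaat
Cyp2f2 (chr7:27119705-27120004, plus strand): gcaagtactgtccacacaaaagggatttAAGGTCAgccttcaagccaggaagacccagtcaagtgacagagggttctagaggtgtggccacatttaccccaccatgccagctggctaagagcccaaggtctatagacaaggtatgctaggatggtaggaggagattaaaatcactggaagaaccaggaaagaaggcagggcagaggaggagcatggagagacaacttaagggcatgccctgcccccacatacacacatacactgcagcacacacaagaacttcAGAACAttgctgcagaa
Susd3 (chr13:49248245-49248544, minus strand): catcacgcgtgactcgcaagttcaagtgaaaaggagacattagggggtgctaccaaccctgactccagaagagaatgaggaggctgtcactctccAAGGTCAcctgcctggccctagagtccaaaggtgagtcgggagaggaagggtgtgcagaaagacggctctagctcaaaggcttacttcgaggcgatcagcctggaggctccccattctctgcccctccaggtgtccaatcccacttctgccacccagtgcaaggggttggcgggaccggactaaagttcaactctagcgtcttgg
Elfn1 (chr5:139907616-139907915, plus strand): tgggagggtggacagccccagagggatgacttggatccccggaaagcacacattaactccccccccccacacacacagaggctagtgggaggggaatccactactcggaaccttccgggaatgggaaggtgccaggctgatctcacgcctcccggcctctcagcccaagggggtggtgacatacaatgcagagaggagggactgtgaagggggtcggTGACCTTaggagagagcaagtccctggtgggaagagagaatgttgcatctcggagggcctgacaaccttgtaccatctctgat
AAGGTCA was in the windows of Cyp2f2, Susd3 and Elfn1, and AGAACA in that of Cyp2f2; neither run of letters was in the Akr1c18 window. The promoter table held 444 of the 534 higher genes (558 promoters) and 377 of the 480 lower ones (500 promoters). AAGGTCA was in 4.12% of the promoters of higher genes, in 3.0% of those of lower genes and in 3.07% of the 10414 promoters of all tested autosomal genes. AGAACA was in 14.7%, 11.0% and 12.2% of the same groups. Among the genes with the largest differences, AGAACA was in 5 of 17 promoters of increases and in 1 of 14 of decreases. AAGGTCA was in 1 of 17 and in 1 of 14. These promoters belong to 15 of the 20 largest increases and 13 of the 20 largest decreases. Whether such small shares differ was not tested. A match is a description of the letters and not a bound site.

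Several of the other large increases were in enzymes of lipid and alcohol metabolism. Adh7, an alcohol dehydrogenase that also oxidizes retinol, was at 12.47, 13.03 and 12.64 in females and 10.44, 8.47 and 8.58 in males (difference 3.55, adjusted p = 4.84e-06). Male array 1 was close to 2 log2 units above the other males. Vnn3, of the vanin family of pantetheinases, which free cysteamine, was at 11.79, 12.03 and 11.66 in females and 7.73, 7.37 and 6.49 in males (4.63, adjusted p = 7.91e-07). Smpdl3b, a sphingomyelinase-like phosphodiesterase, differed by 3.17 and was detected on all 6 arrays. Fa2h, which hydroxylates fatty acids of sphingolipids, was at 9.29, 7.30 and 7.79 in females and was detected on no male array (4.54, 4.61 and 4.83), at least 6.14-fold higher (adjusted p = 4.45e-05).

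Secreted and binding proteins formed another part of the largest increases. Fetub, a secreted protease inhibitor of the cystatin family, was at 11.03, 11.39 and 9.88 in females and 6.08, 6.09 and 5.85 in males (4.76, adjusted p = 8.31e-09). Kng1, the precursor of bradykinin, was at 9.92, 9.11 and 8.55 in females and 6.41, 5.54 and 5.02 in males (3.54, adjusted p = 1.33e-05), with male array 1 again the highest of the males. Obp2a, an odorant-binding lipocalin, was at 10.96, 7.69 and 8.40 in females, a spread of more than 3 log2 units, and was detected on no male array (at least 11.4-fold higher, adjusted p = 0.000221). Hamp, the iron hormone hepcidin, spread almost as widely, at 8.20, 9.41 and 6.42 in females, and was detected on no male array (at least 5.66-fold, adjusted p = 0.000285). Frzb, a secreted antagonist of Wnt ligands, was at 9.50, 9.06 and 9.51 in females and 5.49, 4.51 and 4.93 in males (4.38, adjusted p = 1.93e-09). Acpp, prostatic acid phosphatase, was detected on no male array and was at least 9.02-fold higher in females (adjusted p = 6.37e-06).

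Cd1d1, which presents lipid antigens to natural killer T cells, was bright in both sexes, at 12.92, 12.65 and 12.996 in females and 8.69, 8.36 and 8.22 in males, and had one of the most precise differences (4.43, SE 0.22, adjusted p = 1.37e-10). Nrep, a neuronal regeneration protein, was at 13.61, 13.90 and 13.48 in females and 8.94, 9.64 and 9.67 in males (4.25, SE 0.21, adjusted p = 1.37e-10). Neither gene had overlapping groups. Serpinb1a, an inhibitor of neutrophil elastase, differed by 4.55, with male array 1 the only male array to detect it. The others were 4930486L24Rik (4.92) and Ms4a10 (3.42), detected on all 6 arrays, Lypd6 (3.45), detected on 1 male array, and Xrra1, detected on no male array and at least 10.1-fold higher in females. The adjusted p-values of these 5 genes ran from 1.5e-08 to 5.45e-06.

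**Figure D2:**
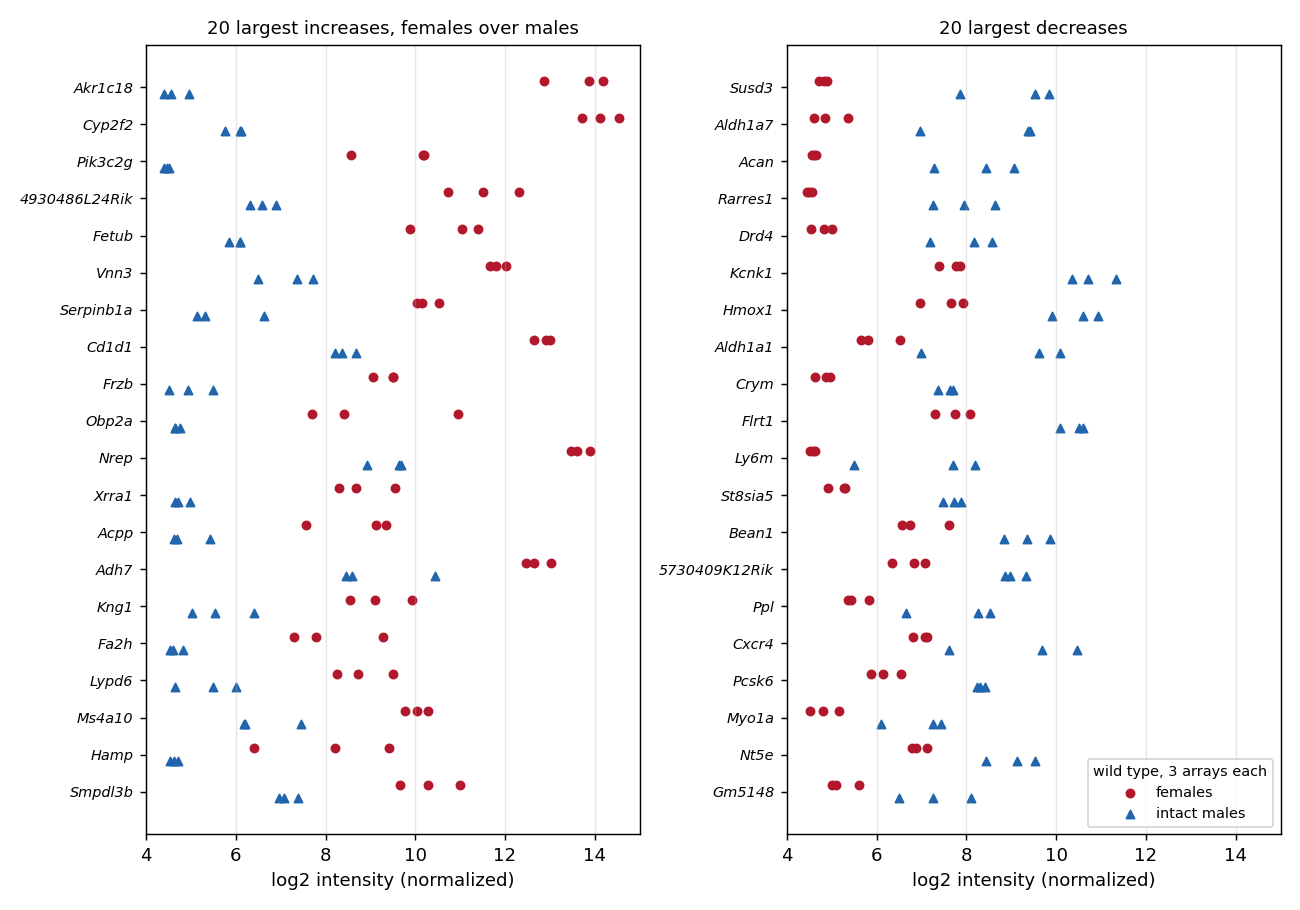
Points are single arrays, with log2 intensity on the horizontal axis and a gene per row, wild-type females as red circles above intact males as blue triangles. In all 40 genes the 3 female arrays lie apart from the 3 male arrays, which was a condition for choosing them. Akr1c18 is the widest gap and male array 1 is often the male nearest to the females.

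Susd3, a membrane protein with a sushi domain, was the largest decrease: no female array detected it (4.90, 4.84 and 4.71), and the male arrays lay at 7.85, 9.84 and 9.54. It was at least 11.7-fold lower in females (adjusted p = 1.58e-06). A second, dim Susd3 probe differed by -0.68 and did not pass. Acan, the aggrecan core protein of cartilage matrix, lay at 4.56, 4.64 and 4.59 in females, none detected, and at 7.27, 9.05 and 8.43 in males, at least 6.59-fold lower (adjusted p = 2.2e-07). Its second probe fell by 2.45 and passed. Drd4, the dopamine D4 receptor, was detected on no female array (4.99, 4.83 and 4.53) and lay at 7.18, 8.57 and 8.18 in males, at least 5.45-fold lower (adjusted p = 1.17e-06). In all 3 genes male array 1 was the lowest of the males and the groups did not overlap.

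Genes of the retinoid list were among the largest decreases. Aldh1a1, which makes retinoic acid from retinaldehyde, lay at 6.51, 5.82 and 5.65 in females and 6.98, 10.09 and 9.61 in males (-2.90, SE 0.62, adjusted p = 0.00467), and male array 1 was within 0.5 of the highest female array. Its neighbour and close relative Aldh1a7 was detected on no female array and was at least 8.33-fold lower (adjusted p = 2.49e-05). Whether each of these probes reads only 1 of the pair was not tested. Rarres1, named for its induction by retinoic acid, was at 4.50, 4.44 and 4.56 in females, none detected, and 7.26, 7.95 and 8.63 in males, at least 5.35-fold lower (adjusted p = 5.68e-08). Of the 15 tested members of the retinoid list, these 3 fell and 1 rose, Rdh11, a retinal reductase (0.71, adjusted p = 0.00258), where 4.78% of all autosomal genes were lower and 5.32% higher. The median of the list was -0.29, against -0.02 over all autosomal genes. Aldh1a2 and Aldh1a3, the other retinaldehyde dehydrogenases, had differences of -0.61 and -0.66 and did not pass.

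Among membrane proteins, Kcnk1, a 2-pore potassium channel, was at 7.86, 7.39 and 7.76 in females and 10.36, 11.33 and 10.72 in males (-3.13, SE 0.31, adjusted p = 2.17e-06), and its second probe fell by 2.83. Flrt1, a leucine-rich repeat adhesion protein, was at 7.74, 7.31 and 8.08 in females and 10.07, 10.50 and 10.60 in males (-2.68, adjusted p = 6.03e-07). The groups of both genes were far apart. Cxcr4, the receptor of the chemokine CXCL12, was at 7.12, 6.81 and 7.08 in females and 7.62, 10.46 and 9.69 in males (-2.25, adjusted p = 0.00811) and did not pass without male array 2. Nt5e, the ecto-enzyme that makes adenosine from AMP, differed by -2.10 and Pcsk6, a proprotein convertase, by -2.14. Ly6m and Myo1a, detected on no female array, were at least 3.02-fold and 2.64-fold lower.

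Among enzymes and binding proteins, Hmox1, which degrades haem, was at 7.93, 6.97 and 7.66 in females and 10.59, 9.90 and 10.92 in males (-2.95, adjusted p = 1.17e-06). Crym, a cytosolic thyroid hormone-binding protein, was at 4.62, 4.96 and 4.86 in females, none detected, and 7.70, 7.36 and 7.65 in males, at least 4.1-fold lower with an adjusted p of 2.41e-08. St8sia5, a sialyltransferase of gangliosides, was likewise detected on no female array and was at least 4.47-fold lower. Bean1, a membrane protein that binds the ubiquitin ligase NEDD4 (-2.37), 5730409K12Rik (-2.30), Ppl, the cytoskeletal linker periplakin (-2.27), and Gm5148 (-2.05) completed the 20 largest decreases.

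Of 14 tested genes of steroid synthesis 2 rose, 1 fell and 11 did not pass, with a median of -0.09. Here and for the lists that follow, 5.32% of all autosomal genes were higher and 4.78% lower, with a median of -0.02. Nr5a1, the nuclear receptor that drives steroidogenic genes, was at 9.31, 8.93 and 9.06 in females and 7.80, 8.08 and 7.85 in males (1.18, SE 0.21, adjusted p = 0.00107). Cyp21a1, the 21-hydroxylase, was at 15.06, 14.92 and 15.14 in females and 14.35, 14.59 and 14.47 in males, a small difference of 0.57 (adjusted p = 0.00368). Cyp11a1, which makes pregnenolone, was at 12.24, 11.91 and 12.12 in females and 12.56, 12.50 and 12.46 in males (-0.42, adjusted p = 0.0356). The groups of these 3 genes did not overlap. The fall of Cyp11a1 was lost without any 1 of female 2, female 3 and the 3 male arrays, and its dimmer probes differed by -0.40 and -0.67 without passing. Star differed by -0.24, Cyp11b1, the 11-beta-hydroxylase, by 0.15, Mc2r, the ACTH receptor, by 0.48, and Mrap, which carries that receptor to the cell surface, by 0.63. None of these 4 passed. With median scaling Nr5a1 and Cyp21a1 did not pass, and without male array 2 the median of the list was 0.05.

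Of 16 tested enzymes that reduce or conjugate steroids 4 were higher and 0 were lower, with a median of 0.23; Akr1c18 was one of the 4. Akr1c12, of the same aldo-keto reductase family as Akr1c18, was at 9.14, 9.78 and 9.21 in females and 7.60, 7.38 and 7.28 in males (1.96, adjusted p = 0.00122). Whether its probe also reads RNA of Akr1c18, next to it among tested genes, was not tested. Akr1d1, the 5-beta-reductase, was at 6.76, 6.64 and 6.98 in females and was detected on no male array, at least 2.44-fold higher (adjusted p = 5.54e-06). Hsd17b7, which acts in cholesterol synthesis and can activate oestrone, was at 11.19, 11.37 and 10.41 in females and 9.15, 8.43 and 8.64 in males (2.25, adjusted p = 0.000315). Hsd11b1, which regenerates corticosterone, differed by -0.03 and did not pass.

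In cholesterol synthesis 5 of 16 tested members rose and 0 fell, and the median was 0.46. Hsd17b7, given above, had the largest difference. Fdps, which makes farnesyl diphosphate, was at 13.38, 13.66 and 12.91 in females and 11.68, 11.04 and 11.32 in males (1.97, adjusted p = 0.000221). The others that passed were Cyp51, the lanosterol demethylase (1.31, adjusted p = 0.0239), Mvd, mevalonate decarboxylase (1.18, adjusted p = 0.00684), and Stard4, a cytosolic sterol carrier (0.85, adjusted p = 0.0255). The count was 3 without female 2, male 2 or male 3, and 2 with median scaling. Of 15 genes of cholesterol storage and transport, Lipa, the lysosomal acid lipase that frees stored cholesterol, rose (11.32, 11.19 and 11.50 in females, 10.25, 9.87 and 10.06 in males, difference 1.28) and Osbpl3, an oxysterol-binding protein, fell (-0.82). Of 35 genes of fatty acids and lipid droplets, Dgat2, which makes triglyceride, rose (11.38, 11.77 and 10.96 in females, 9.43, 9.44 and 8.56 in males, 2.23), as did Gpam, which starts glycerolipid synthesis (1.44). Acadvl, of very-long-chain fatty acid oxidation, fell by 0.56. Acadvl passed in leave-one-out fits only without male 2, Osbpl3 did not pass without female 3 or male 2, and with median scaling Lipa, Osbpl3 and Acadvl did not pass.

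Glutathione and detoxifying enzymes moved in both directions, with 8 of 37 higher, 2 lower and a median of 0.16. Fmo1, a flavin monooxygenase, was at 11.03, 9.89 and 11.11 in females and 8.32, 8.39 and 8.20 in males (2.37, adjusted p = 1.96e-05). Gsta3, a glutathione transferase that in other mammals also isomerizes steroids, was at 10.69, 12.26 and 10.43 in females and 9.18, 8.98 and 8.80 in males (2.14, adjusted p = 0.00119). Its second, dim probe differed by 0.71 and did not pass. Mgst1, a membrane-bound transferase, was at 14.17, 14.32 and 14.27 in females and 12.90, 12.42 and 12.58 in males, and Gstk1, of the mitochondrial class, at 13.86, 13.97 and 14.02 in females and 12.62, 12.28 and 12.22 in males. Both were bright in either sex, and their differences were 1.62 and 1.58, with standard errors of 0.15 and 0.12. Cbr1 (0.89), Mgst3 (0.69), Gstp1 (0.63) and Gpx1 (0.46) were also higher. Gstm2 (-0.90) and Gstm1 (-0.56), of the mu class, were lower, and a dim second Gstm1 probe differed by 0.25 without passing. With median scaling 4 members were higher and 0 were lower.

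**Figure D3:**
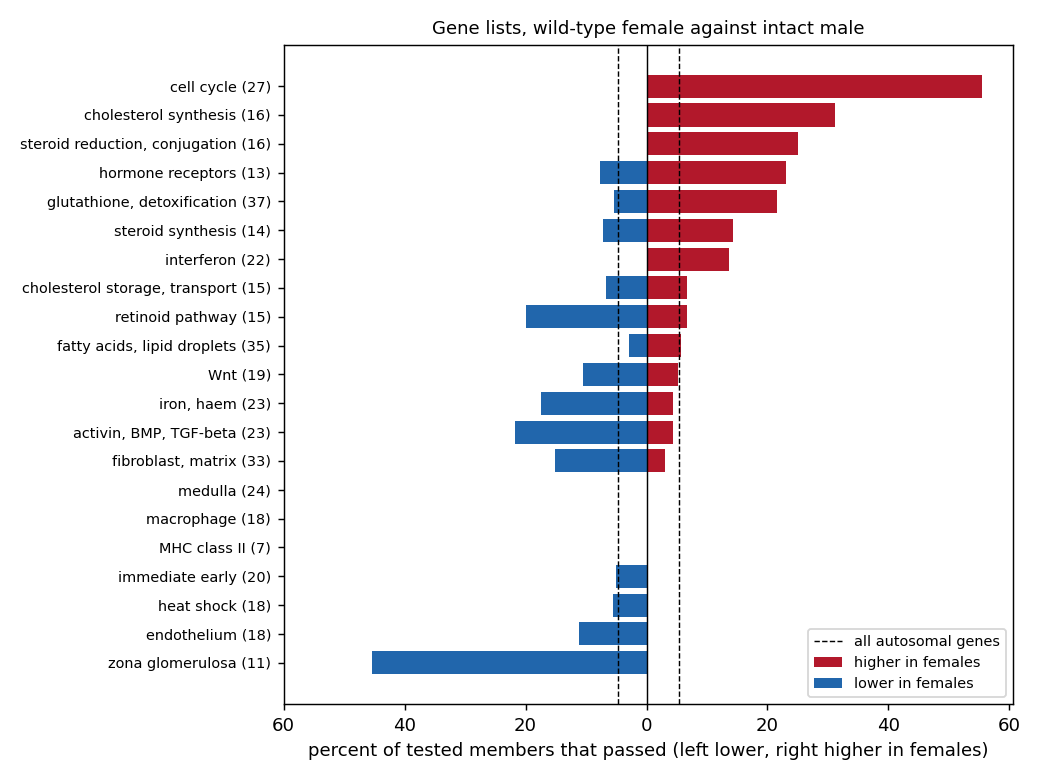
Bars give the percent of tested members of each list that passed, higher in females to the right (red) and lower to the left (blue), with the number tested in brackets. Dashed lines mark the 5.32% and 4.78% of all autosomal genes; cell cycle (15 of 27) is the longest bar to the right and zona glomerulosa (5 of 11) the longest to the left of the 21 lists drawn; the X-zone list (2 of 2 higher) is not drawn.

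Cell cycle genes were higher in females, with 15 of 27 tested members higher and 0 lower, and a median of 0.70. Tk1, the thymidine kinase of S phase, was at 6.80, 7.15 and 7.83 in females and 5.71, 6.08 and 5.49 in males (1.50, adjusted p = 0.00452). Top2a, the topoisomerase of chromosome segregation, was at 6.51, 6.40 and 6.88 in females and 5.73, 5.23 and 4.66 in males (1.39, adjusted p = 0.0104). Cdk1, the mitotic kinase, was at 6.63, 6.66 and 7.01 in females and 5.91, 5.23 and 5.20 in males (1.32, adjusted p = 0.00322). All 3 genes lay near background in males, where Top2a and Cdk1 were each detected on 1 of 3 arrays. Birc5, Cdc20, Cdca3, Kif22, Aurka, Aurkb, Nusap1, Prc1 and Mad2l1, of mitosis, Mcm5 and Mcm6, of the replicative helicase, and Tyms, which makes thymidylate, were also higher, by 0.59 (Mad2l1) to 1.33 (Cdca3). A dim second Tk1 probe differed by 0.68 and a further Cdc20 probe by 0.67, and neither passed. Another Cdc20 probe (1.09) and the other probes of Birc5 and Cdca3 passed. Ccnd1 and Ccnd2, cyclins of G1, had differences of -0.31 and -0.44 and did not pass. A further 19 listed genes were not tested, among them Mki67, which had no probe with a single symbol. The count rested on single arrays: it was 6 without female 3 and 6 without male 3, and 5 with median scaling, with 0 lower each time. Female array 3 was the highest of the females for each of the 15 genes except Mad2l1.

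Zona glomerulosa genes were lower in females: 5 of 11 fell, 0 rose and the median was -0.76. Shh, the hedgehog ligand made in this zone, was at 9.71, 9.34 and 9.46 in females and 10.43, 11.15 and 10.48 in males (-1.18, adjusted p = 0.0269). Agtr1a, the angiotensin II receptor, was at 12.16, 11.51 and 11.45 in females and 12.79, 12.02 and 13.04 in males, with overlapping arrays (-0.91, adjusted p = 0.0478). Rgs4, a brake on receptor signalling (-0.76), and Cacna1h, the T-type calcium channel of glomerulosa cells (-0.68), fell as well. Kcnk9, the TASK3 potassium channel, was detected on no female array and was at least 1.42-fold lower (adjusted p = 0.01). Cyp11b2, the aldosterone synthase, was at 8.63, 7.60 and 8.21 in females and 9.89, 8.996 and 8.71 in males, did not overlap, and did not pass (-1.05, adjusted p = 0.0882); its second, dimmer probe differed by -1.27 and passed (adjusted p = 0.0471). Wnt4, of the same zone, differed by 0.01, and Kcnk3, the TASK1 channel, by -0.13. Dab2, of the same list, differed by -0.24, and its other probes by 0.20 and -0.19, and none of them passed. The count was 2 without female 2 or male 2, 3 without female 3 and 1 with median scaling.

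Of 23 tested members of the activin, BMP and TGF-beta pathways 5 fell and 1 rose, with a median of -0.12. Fstl3, a secreted binder of activin, was at 6.61, 6.59 and 7.17 in females and 7.96, 8.05 and 8.44 in males (-1.36, adjusted p = 0.000364). Acvr1, a type I receptor of BMPs and activins, was at 8.14, 8.19 and 8.01 in females and 8.95, 9.68 and 9.41 in males (-1.23, adjusted p = 0.000227). Bmp7, a ligand, was at 8.78, 8.62 and 8.88 in females and 9.70, 9.80 and 9.52 in males (-0.91, adjusted p = 0.000307). Smad3, which carries the signal to the nucleus (-0.50), and the receptor Tgfbr2 (-0.44) fell less. A dim second Tgfbr2 probe differed by 0.20 and did not pass. Id2, a common target of BMP signalling, rose (11.11, 11.16 and 10.83 in females, 10.03, 8.99 and 9.33 in males, 1.59, adjusted p = 0.0159). Inha, the inhibin alpha subunit, differed by -0.52 and did not pass. The count of lower members was 3 without female 2, female 3, male 2 or male 3, and the median was 0.00 without female 3.

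In iron and haem handling 4 of 23 members fell and Hamp rose, with a median of -0.07. Beside Hmox1, the decreases were Cp, the ferroxidase ceruloplasmin (8.68, 8.81 and 8.75 in females, 9.60, 9.40 and 9.57 in males, -0.78), Ftl1, the ferritin light chain (-0.46), and Slc48a1, a haem transporter (-0.43). The count of lower members was 2 without male 2 or male 3. Among 13 receptors of hormones, Oxtr, the oxytocin receptor, was at 5.91, 5.59 and 5.69 in females and was detected on no male array, at least 1.16-fold higher (adjusted p = 0.000643). Rora, an orphan nuclear receptor (0.60), and Igf1r, the IGF1 receptor (0.42), were higher, and Nr1h3, the oxysterol receptor LXR-alpha (-0.50), was lower. Only 1 of the 3 increases was left without female 1, male 2 or male 3. Of 19 genes of Wnt signalling, Frzb rose and Lrp5, a co-receptor (-0.64), and Tcf7l1, a transcription factor (-0.55), fell. Lrp5 was lost when any 1 of the 6 arrays was left out and Tcf7l1 without female 1, female 3, male 2 or male 3, and neither passed with median scaling, with the 6 arrays alone or with no detection filter. A dim second Lrp5 probe differed by 0.36 without passing.

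**Figure D4:**
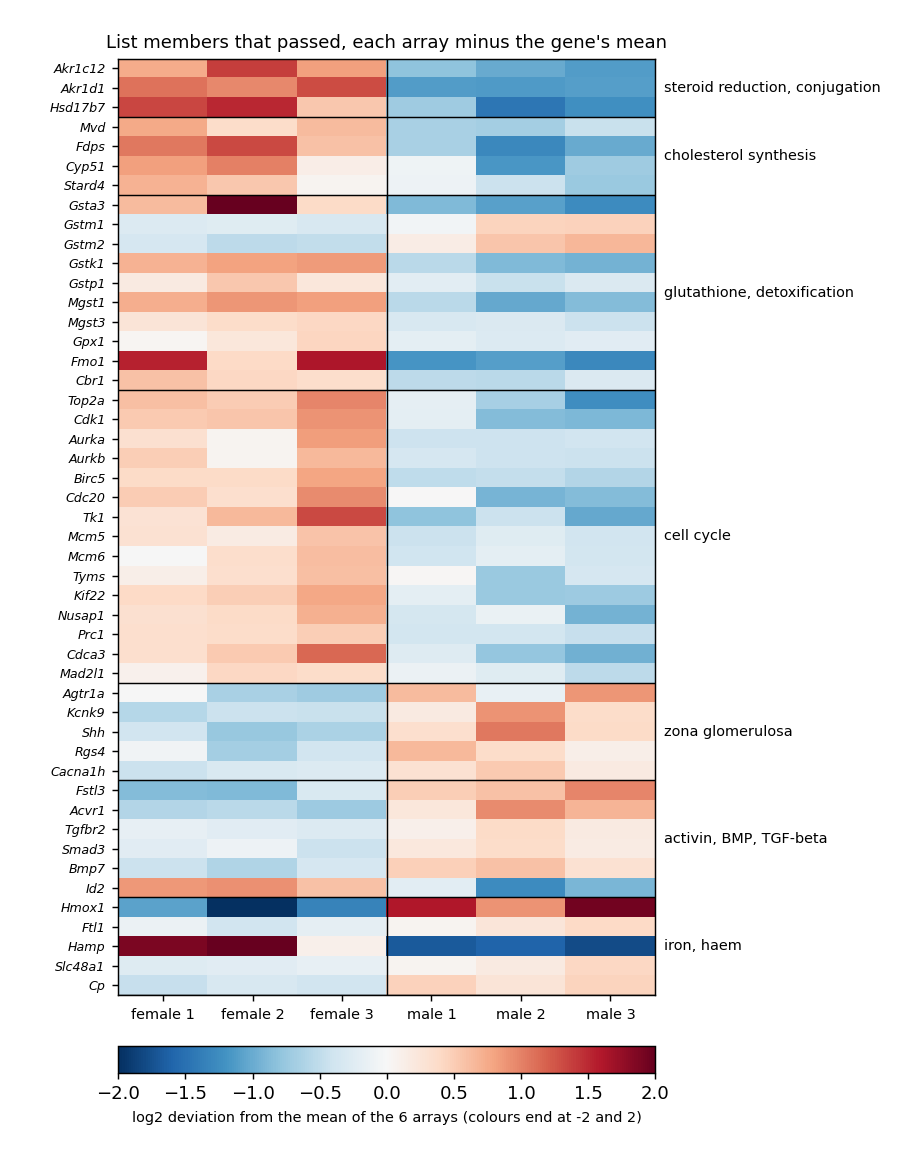
Rows are list members that passed (Akr1c18 is left out, and a gene in several lists is drawn once), and columns are the 3 female and the 3 male arrays. Colour gives each array's log2 deviation from the gene's mean of the 6 arrays, with female array 3 the reddest for many cell cycle genes and male array 1 the palest of the males in several rows.

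Of 24 tested genes of the medulla 0 passed in limma and 3 had an unadjusted p under 0.05; 21 had a negative difference and the median was -0.28. Th differed by -0.34, Ddc, which makes dopamine, by -0.26, and Dbh, which makes noradrenaline, by -0.29. Pnmt, which makes adrenaline, was at 13.33, 12.32 and 12.45 in females and 13.54, 11.28 and 12.47 in males, where it varied by more than 2 log2 units (0.27, adjusted p = 0.795). The groups overlapped.

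Fos and Egr1, transcription factors of the immediate early response, were highest on male arrays 2 and 3. Fos was at 4.58, 8.08 and 6.12 in females and 5.56, 11.82 and 9.45 in males, and Egr1 at 8.79, 12.09 and 11.15 in females and 11.22, 14.55 and 13.11 in males. Both spread over more than 3 log2 units within a sex, the groups overlapped, and neither gene passed. Of 20 tested members 1 fell, Jun, at 10.42, 10.01 and 10.19 in females and 11.51, 12.45 and 11.86 in males (-1.74, adjusted p = 7.32e-05). The median of the list was -1.43; it was -0.31 without male 2, and without male 1 the count of lower members was 10. Hspb1, a small heat shock protein, was at 10.27, 9.64 and 9.52 in females and 10.87, 11.58 and 12.24 in males (-1.76, adjusted p = 0.000398) and was the 1 of 18 heat shock genes that passed. The count was 3 without female 1 and 4 without male 1. Hspa1a, of the inducible HSP70 class, was at 7.06, 7.86 and 7.48 in females and 8.01, 11.97 and 10.48 in males and did not pass. Of 12 glucocorticoid-induced genes the metallothionein Mt1 fell (-0.63); 0 passed without female 3 or male 2 or with median scaling, and 3 without male 1.

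Over 15 lists of other cells and tissues, 2 of 127 tested members were higher and 8 were lower, and the medians of all lists but those of lymphocytes and ovary were negative. Of 33 fibroblast and matrix genes 5 fell and 1 rose, with a median of -0.23 and a summed intensity of 48172 to 56954 in females and 54479 to 56235 in males. Beside Acan, they were Timp2, an inhibitor of matrix proteases (10.08, 10.53 and 10.19 in females, 11.44, 11.99 and 12.16 in males, -1.60), the laminin chain Lama1 (-1.35), the proteoglycan Dcn (-1.12) and the crosslinking enzyme Loxl1 (-0.41), while Sparc rose (0.56). The count of lower members was 3 without female 1, female 3, male 1 or male 3 and with median scaling. The collagens Col1a1 and Col1a2 differed by -0.002 and 0.13. Of 18 endothelial genes Flt1 (-0.57) and Esam (-0.44) fell, with 15 of 18 differences negative and a summed intensity of 26082 to 28751 in females and 30078 to 35075 in males, which did not overlap. Neither endothelial gene passed without female 2, female 3, male 2 or male 3, or with median scaling or no intensity trend. Tpm2, of smooth muscle, fell by 1.09 and did not pass without female 1, female 3 or male 3 or with median scaling. Their part in the decreases above was not tested. In limma 0 members passed of 8 genes of capsule and hedgehog signalling, 12 of the clock, 9 of lymphocytes, 5 of Schwann and sustentacular cells, 7 of fat, 3 of kidney, 4 of liver, 2 of pancreas, 3 of skeletal muscle and 5 of red blood cells, and the 1 testis gene (Insl3) did not pass. Among these, 3 Schwann or sustentacular, 2 red blood cell, 1 clock and 1 lymphocyte gene and Insl3 had an unadjusted p under 0.05. The median was -0.67 for Schwann and sustentacular cells (5 of 5 negative), -0.51 for fat, -0.47 for liver and -0.45 for red blood cells. Alb of liver and Umod of kidney were below the detection filter.

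Of 18 macrophage genes 0 passed in limma and 0 had an unadjusted p under 0.05, with summed intensities of 11134 to 12519 in females and 10327 to 13700 in males. Of 7 class II antigen presentation genes 0 passed in limma and 5 had an unadjusted p under 0.05; all 7 differences were negative, with a median of -0.73. With a replicate block 3 passed as lower, with the 6 arrays alone 2, without male 1 2 and with array weights 5. For H2-Aa the values were 8.68, 8.48 and 8.38 in females and 8.99, 9.70 and 10.001 in males, with no overlap (adjusted p = 0.0823). Of 22 interferon response genes 3 rose and 0 fell, with a median of 0.31: Psmb8, of the immunoproteasome (0.72), Gbp2, a guanylate-binding protein (0.69), and Ifi35 (0.55). That count was 1 without female 1, female 3 or male 1 and 0 with median scaling. Second probes of Psmb8 (0.56) and Gbp2 (0.21) did not pass. In the knockout 0 of the 22 interferon genes were higher and 1 was lower, with a median of -0.007. Of the ovary list, Oosp1, a secreted protein of the oocyte, rose: it was at 6.62, 6.90 and 6.80 in females and was detected on no male array (at least 2.4-fold, adjusted p = 1.22e-05). In castrated males Oosp1 was at 7.24, 6.48 and 6.77.

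Some genes with large differences were next to each other in the order of the tested genes. That order holds tested autosomal genes alone, by RefSeq position on GRCm38.p6, so genes not tested may lie between those called neighbours here. Among the 211 higher and 179 lower genes that passed beyond 1 on the log2 scale, 35 pairs were neighbours. In 20 pairs both were higher, in 13 both were lower and in 2 they went in opposite directions. How many such pairs the positions alone would give was not tested. The pairs named here were chosen after their values were seen. On chromosome 7, Cdkn1c, Slc22a18 and Phlda2 of the imprinted cluster are neighbours in that order. Cdkn1c, a brake on the cell cycle, was at 13.94, 14.46 and 14.50 in females and 12.48, 12.89 and 12.59 in males (1.65, adjusted p = 7.56e-07). Slc22a18, a transporter-like protein, was at 7.71, 7.43 and 7.94 in females and 6.60, 6.24 and 6.48 in males (1.25), and Phlda2, a growth-restraining gene of the placenta, at 7.43, 7.44 and 6.63 in females and 6.15, 4.97 and 5.20 in males (1.73, adjusted p = 0.0323). None of the 3 overlapped.

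On chromosome 16 the protease inhibitor Fetub and both kininogens form a row among tested genes. Kng2 was at 8.47, 7.66 and 7.22 in females and was detected on no male array, at least 4.84-fold higher (adjusted p = 6.9e-06). On chromosome 3, Adh1, the classical alcohol dehydrogenase, is the tested neighbour of Adh7 and was at 15.26, 15.24 and 15.31 in females and 14.77, 13.29 and 13.20 in males (1.52, adjusted p = 0.000866). On chromosome 15 the row of tested genes Them6, Lynx1 and Ly6d was lower, by 1.55, 1.61 and 1.36. On chromosome 6 the tested neighbour of Oxtr is Ssu2, which was detected on no male array and was at least 3.99-fold higher. Kcnk1 and its neighbour Slc35f3, a solute carrier, went in opposite directions, by -3.13 and 1.63. Several of these rows hold related genes, whose probes may share targets; this was not tested. By chromosome, the share of tested genes that passed ran from 6.41% on chromosome 14 to 13.4% on chromosome 12.

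Castrated males were set beside both sexes in the same fit. The castrated against intact male comparison passed for 1071 autosomal genes (10.7%), 463 higher (4.62%) and 608 lower (6.06%) in castrated males. The female against castrated comparison passed for 31 (0.309%), 18 higher (0.179%) and 13 lower (0.13%) in females, and 941 had an unadjusted p under 0.05. Without castrated array 1, male array 2 or male array 3 the count of 1071 was 522, 681 and 668. These comparisons share arrays with the female against male one, so their overlap is not counted and values are given side by side. Akr1c18 was at 13.88, 14.19 and 12.87 in females, 13.90, 13.30 and 13.61 in castrated males and 4.97, 4.56 and 4.40 in intact males. Acan was at 4.56, 4.64 and 4.59 in females, 4.50, 4.56 and 4.62 in castrated males, where no array detected it, and 7.27, 9.05 and 8.43 in intact males. In both genes the castrated arrays lay with the females and apart from the intact males.

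Some of the 31 genes that passed between females and castrated males are named here, chosen after their values were seen. The rest are not described. Elfn1, a postsynaptic adhesion protein known from nerve cells, stood at 7.70, 7.42 and 7.26 in females, 4.60, 4.52 and 4.61 in castrated males and 4.63, 4.51 and 4.42 in intact males, and was detected in females alone of these groups. It was at least 3.86-fold higher in females than in intact males (adjusted p = 4.21e-07) and at least 3.59-fold higher than in castrated males (adjusted p = 6.3e-06). Cit, the citron kinase of cytokinesis, was at 7.79, 6.93 and 7.98 in females, 5.56, 4.92 and 5.70 in castrated males and 5.35, 6.05 and 5.38 in intact males (female minus castrated 2.17, adjusted p = 0.0483). For both genes the castrated arrays overlapped those of intact males. Prc1 and Mcm6 of the cell cycle list also passed, at 0.97 and 0.82 above castrated males, and 0 of the 27 cell cycle genes passed between castrated and intact males.

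In other genes castrated males lay between the sexes or beyond females. Sbk1, a protein kinase, was at 12.43, 12.46 and 12.26 in females, 11.52, 11.61 and 11.62 in castrated males and 10.26, 10.15 and 10.11 in intact males, with no overlap among the 3 groups (female minus castrated 0.81, adjusted p = 0.00418). Apof, an apolipoprotein, was in the same order, at 8.88, 9.15 and 9.10 in females, 7.88, 7.76 and 7.56 in castrated males and 5.99, 6.51 and 6.57 in intact males (1.31, adjusted p = 0.0136). Fa2h was highest in castrated males, at 9.29, 7.30 and 7.79 in females and 11.21, 10.16 and 11.004 in castrated males (-2.67, adjusted p = 0.0134). Cyp17a1, the 17-alpha-hydroxylase, was detected on no female array (5.06, 4.59 and 4.56), was at 6.23, 9.10 and 9.04 in castrated males and at 6.87, 6.003 and 6.88 in intact males. It was at least 6.04-fold lower in females than in castrated males (adjusted p = 0.0244), and between females and intact males it did not pass (adjusted p = 0.0774).

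For Bean1 and Bmp7 the castrated arrays lay near the intact males. Bean1 was at 7.60, 6.74 and 6.57 in females, 9.15, 8.68 and 9.03 in castrated males and 8.83, 9.35 and 9.86 in intact males (female minus castrated -1.98, adjusted p = 0.0134). Bmp7 was at 8.78, 8.62 and 8.88 in females and 9.55, 9.56 and 9.49 in castrated males (-0.77, adjusted p = 0.0244). Nr1d1, the clock repressor REV-ERB-alpha, was lower in castrated males than in both sexes, at 9.16, 9.14 and 8.78 in females, 7.72, 7.02 and 7.14 in castrated males and 8.86, 8.59 and 9.20 in intact males (female minus castrated 1.73, adjusted p = 0.00694; castrated minus intact male -1.59, adjusted p = 0.000774). The interferon-induced genes Rsad2, Usp18, Oas1g and Cmpk2 were also higher in females than in castrated males, by 0.80 to 1.03. Rsad2, Usp18 and Oas1g did not pass between females and intact males and were lower in castrated than in intact males (-0.87, -0.97 and -0.71). Cmpk2 was higher in females than in intact males (0.66, adjusted p = 0.0045) and did not pass between castrated and intact males. The count of 31 was 5 without female 2 and 8 without female 3, and 10, 17 and 8 without castrated array 1, 2 or 3.

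**Figure D5:**
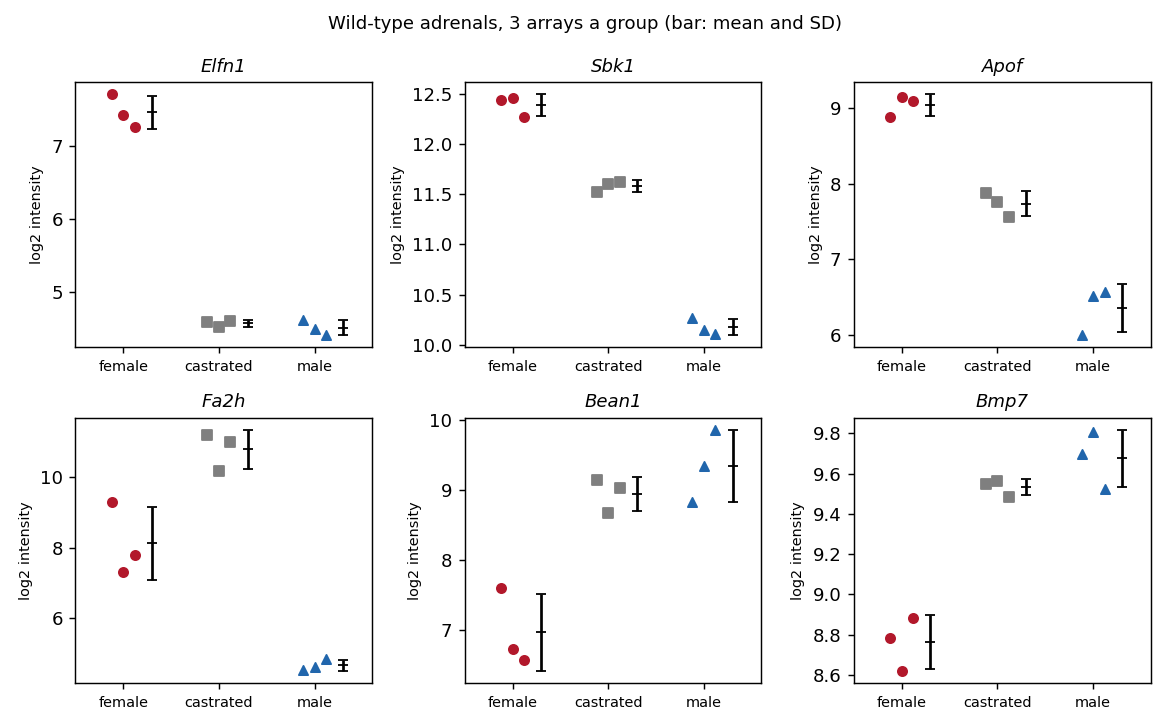
Points are single wild-type arrays in log2 intensity, females left, castrated males in the middle and intact males right, with the mean and SD beside each group. Elfn1 is at background in castrated and intact males, Sbk1 and Apof are intermediate in castrated males, Fa2h is highest in castrated males, and Bean1 and Bmp7 of castrated males lie near the intact males.

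The knockout arrays gave the same comparison in samples that shared none with the wild-type one. Ephb6 itself was at 4.96, 5.41 and 5.54 in knockout females and 6.51, 7.12 and 6.69 in wild-type females, and at 4.89, 5.58 and 5.86 in knockout males and 5.73, 6.37 and 5.90 in wild-type males, where the genotypes overlapped. Between knockout females and knockout intact males 1024 autosomal genes passed (10.2%), with 552 higher (5.5%) and 472 lower (4.7%). The count was 636 without knockout male array 2. Of the 1024, 690 also passed in wild type, which is 68.0% of the wild-type calls and 67.4% of the knockout calls. They were higher in both for 369 genes, lower in both for 320 and opposite for 1, Rmdn1, whose second probe did not pass in wild type. Of the 1014 wild-type calls 1006 had the same sign in the knockout, where 75.3% of all autosomal genes did, and in 869 the knockout arrays were separated the same way; over all autosomal genes 14.5% were separated upward and 15.1% downward in the knockout. All 40 of the largest differences passed in the knockout in the same direction. Across autosomal genes, which are not independent, the differences of both genotypes had a Pearson r of 0.816 and a Spearman rho of 0.683, given as a description. The genotypes share a platform, a normalization and the linear model, which gave each gene the same variance estimate in both comparisons. For Elfn1 the standard error was 0.256 in wild type and 0.256 in the knockout. A gene with a low variance estimate passes more easily in both genotypes, so the 690 shared calls are not independent. How many calls would be shared with variances estimated separately was not tested.

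The levels of 3 genes with large differences are given for the knockout. Cyp2f2 was at 13.50, 13.63 and 14.11 in knockout females and 6.19, 5.83 and 6.13 in knockout males (7.70, adjusted p = 2.28e-15). Elfn1 was at 7.41, 8.22 and 7.21 in knockout females and 4.52, 4.57 and 4.52 in knockout males, and Susd3 at 4.65, 4.94 and 5.05 in knockout females and 9.25, 9.23 and 10.03 in knockout males. In all 3 the knockout sexes did not overlap. Nr5a1 differed by 0.81 (adjusted p = 0.0183) in the knockout, Fstl3 by -1.46 and Acvr1 by -1.16, and all 3 passed. Of 27 cell cycle genes 4 were higher and 0 lower there, with a median of 0.43. Cyp11a1 differed by -0.13 and Id2 by 0.07 in the knockout, and neither passed. Of the class II genes 7 of 7 fell in the knockout, with a median of -1.49.

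The difference between the genotypes' sex differences was tested itself, and 0 of 10032 autosomal genes passed in limma, with 177 at an unadjusted p under 0.05. So none of the contrasts in calls just given is shown to differ between genotypes. The genes with the most extreme test statistics are given with the log2 sex difference in the knockout minus that in wild type, each at an adjusted p of 0.9998. Egr1, where this value was 4.14, was at 10.75, 10.63 and 11.83 in knockout females and 9.78, 8.98 and 8.88 in knockout males, with the wild-type values above. On the same side, in the order of the statistic, came Creb3l2, a membrane-bound transcription factor (0.83), Prl8a2, of the prolactin family (2.68), Erf, a repressor of the ETS family (1.43), and Vgf, a neuroendocrine peptide precursor (2.38). On the other side were Rmdn1 (-1.76), Glyctk, glycerate kinase (-1.31), Nkg7, of cytotoxic granules (-1.26), Zfp263 (-0.68) and Myo1d, a class I myosin (-1.33).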

How the data were processed

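RNA of 18 adrenal samples was hybridized to Illumina bead arrays, 1 sample an array. The deposited table holds, per the file headers, the mean bead signal of each probe as an intensity, not normalized between arrays, and a detection p-value of each probe against the array's negative controls. GenomeStudio is named in the submitters' processing notes; its version and the normalization behind the authors' second table, of normalized intensity values, are not given in the sources used here.

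The bead signal was background-corrected, quantile-normalized and log2-transformed by the neqc function of limma (version 3.58.1, R 4.3.3) with an offset of 16. Of 45281 probes, 18158 had a detection p-value under 0.01 on at least 3 of 18 arrays, and 15717 of these had 1 gene symbol in the platform annotation. The brightest probe stood for a gene, which left 10375 genes, 10032 of them autosomal in RefSeq (GRCm38.p6). A linear model with a mean for each of the 6 groups was fitted to all 18 arrays, with moderated variances and an intensity trend (12 residual and 6.20 prior degrees of freedom). P-values were adjusted over all 10375 genes by Benjamini-Hochberg, and every adjusted p in the text is from this limma fit. The number of arrays limits the precision.

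Where no array of the dimmer group detected a gene, the fold change is a bound ("at least"): the brighter group's mean was set against the mean of, per array, the higher of the lowest detected signal and the gene's own value. Groups were taken from the labels, and all 18 arrays were kept. The rule for naming took the 20 largest increases and the 20 largest decreases among genes that passed without overlap. It added up to 8 passing and 4 further members of each of 36 gene lists. It also took 5 genes at either end of the test of the genotypes' sex differences, and a few fixed markers. Some list members are named outside this rule without a mark: Mc2r, Mrap, Wnt4, Gpx1 and some of the passing cell cycle genes. These were not fixed in advance. Other genes outside the rule are marked as chosen after their values were seen. The members and lists were chosen with earlier results of these data known. Of 773 list entries 509 were tested. The fit was tested on simulated data. Samples with the same number did not deviate together (r of 0.09, 0.15 and -0.05 between females and males), so they were not paired. Alternatives changed the scaling, background, filter, probes, weights, block, trend and arrays.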

Additional observations from a re-analysis of the deposited data

Results flagged for a closer look

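In 3 of the genes picked for naming, every array of one genotype put females above males and every array of the other put them below. Rmdn1, a microtubule-associated protein, was at 4.96, 6.20 and 5.83 in knockout females and 6.69, 6.43 and 6.42 in knockout males, against 6.53, 5.95 and 6.22 in wild-type females and 5.25, 5.40 and 5.33 in wild-type males. The sex difference in the knockout minus that in wild type was -1.759. The wild-type male values of Rmdn1 lay below the lowest detected signal of those arrays (5.42, 5.54 and 5.56). A second Rmdn1 probe differed by 0.28 between the wild-type sexes and did not pass. Creb3l2, a membrane-bound transcription factor, was at 8.31, 8.40 and 8.35 in knockout females and 7.96, 8.19 and 7.998 in knockout males, against 8.40, 8.56 and 7.96 in wild-type females and 8.98, 8.82 and 8.70 in wild-type males, a difference of 0.8324. Slc4a1, the anion exchanger of red blood cells, was at 5.85, 5.75 and 6.08 in knockout females and 5.19, 5.66 and 5.47 in knockout males, against 5.66, 5.62 and 5.29 in wild-type females and 6.53, 5.88 and 6.52 in wild-type males, a difference of 1.237. A second Creb3l2 probe differed by -0.20 in wild type and did not pass. The adjusted p of limma's test of the difference between genotypes was 0.9998 for each of the 3 genes. Only the genes picked for naming were searched, so other genes may show the same. Rmdn1 and Creb3l2 had been picked by the statistic of that test.

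Among 2441 detected probes without a single gene symbol, which the comparisons above do not use, 79 were higher and 55 were lower in wild-type females at an adjusted p under 0.05. Their differences ran from -4.30 to 4.49 on the log2 scale.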

How the results depend on the processing

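The count for females against males in wild type was 300 with median scaling, where the median of all genes was -0.09 and 45.7% of calls were higher against 52.7%, and 2178 with array weights. Without 1 array of either sex it lay between 618 and 1053. The knockout count was 306 with median scaling, 1967 with weights and 636 to 918 without 1 array. The castrated against intact male count was 392 with median scaling (121 higher and 271 lower, against 463 and 608, with the median of all genes shifted from -0.03 to -0.16), 2534 with weights and 522 to 1015 without 1 array. The female against castrated count was 8 with median scaling (3 higher and 5 lower), 324 with weights and 5 to 26 without 1 array. The cause of these shifts was not tested. With a replicate block the wild-type count was 979, the knockout count 983, the castrated count 1029 and the female against castrated count 30. Every other setting for the wild-type sexes gave 802 to 1027. Without the dim knockout castrated array 1 or knockout female array 1, both chosen after seeing the data, it was 1275 and 1187, and the knockout count without the dim array was 1329. The test between genotypes gave 0 in every setting run. Of 116 named genes that passed, 47 lost the call with median scaling, 15 without a filter, 14 without the trend, 12 with the mean of probes, 11 with 6 arrays alone, 4 with the block and 14 to 32 without 1 array, and 0 reversed. Signal near background limits Elfn1 and the genes given as bounds, whose size cannot be read further.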
